A study of Mus musculus with 10 samples.

Results

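Primitive neural stem cells are a stage that mouse embryonic stem (ES) cells pass through in culture on the way to definitive neural stem cells, and the arrays were searched for genes that were high or low at that stage and lay on the other side of it both before and after. The comparison used 8 of the series' 10 arrays: the 4 arrays of primitive cultures were set against 4 arrays of the stages around them. ESC (2 arrays) were cells of the R1 line, from the 129/Sv strain, kept undifferentiated with Lif (1000 U/ml) and 15% serum on a layer of inactivated fibroblasts. pNSC_L (2 arrays) were primary spheres that R1 cells, plated at 20 cells per microlitre, formed in 5 to 7 days in serum-free N2 medium with Lif at 1000 U/ml. pNSC_LF (2 arrays) were a second pass of such spheres with Lif, FGF at 10 ng/ml and heparin at 2 µg/ml. dNSC (2 arrays) were definitive neural stem cells passaged from primitive ones in N2 and B27 with EGF and FGF at 20 ng/ml each and heparin, without Lif. By their labels, all 4 groups derive from 1 cell line. Feeders, serum, Lif, growth factors and B27 differ between them together, so the stage and the medium cannot be told apart. The other 2 arrays, CNS_NSC, were neural stem cells cultured from the brain of E11.5 ICR embryos in EGF, FGF and heparin, and entered the estimate of spread; their values are given beside some genes only.

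Lif, acting through the transcription factor Stat3, holds mouse ES cells in the naive state of the early epiblast, and its removal lets them move towards the primed epiblast and the germ layers. When ES cells are plated sparsely without serum, some form floating spheres that still need Lif, and these are the cells called primitive neural stem cells. Definitive neural stem cells grow instead on FGF and EGF, as do the radial glia-like cells of the embryonic brain.

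A gene was called transiently high where each of its 4 primitive arrays lay above all 4 ESC and dNSC arrays and the mean of the primitive passes was above both ESC and dNSC at an adjusted p under 0.05 by limma. Transiently low was the mirror image. Both tests share the primitive arrays, so they are not independent. Of 19938 genes, 919 were transiently high (4.61%) and 708 transiently low (3.55%). The order of the arrays alone held for 1798 genes on the high side (9.02%) and 1494 on the low side (7.49%). Taken singly, the primitive mean differed from ESC at 3571 genes (17.9%), from dNSC at 8570 (43.0%) and from the mean of both at 6662 (33.4%). Just inside the high order lay Ccndbp1, whose lowest primitive and highest ESC array both read 9.45 at 2 decimals, and just outside it Setd6 (11.23 on both). On the low side the corresponding genes were Zfp512, at 9.34 on both sides, and Itpa, whose highest primitive and lowest other array both read 10.32. Most differences were small. They reached 2-fold against both stages at 109 high and 71 low genes. The median log2 difference of the high genes was 0.57 from ESC and 0.86 from dNSC, that of the low genes -0.58 and -0.90, and that of all genes 0.03 and 0.01.

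The stage before and the stage after were often unlike each other at these genes. Among the 919 high genes dNSC was lower than ESC at 391 and higher at 45, and among the 708 low genes it was higher at 312 and lower at 41. Over all genes dNSC was higher than ESC at 20.7% and lower at 19.9%. The primitive level was closer to ESC than to dNSC for 671 of the high and 513 of the low genes. The passes differed at few of them, but at a larger share than over all genes. pNSC_LF was above pNSC_L at 37 high (4.03%) and 15 low genes (2.12%), against 1.1% of all genes. It was below pNSC_L at 16 high (1.74%) and 9 low genes (1.27%), against 0.677% of all genes. Called separately, each pass alone gave the transient call for 450 of the high and 349 of the low genes. Differences below are log2, primitive minus the named stage, ± SE from limma (2 arrays for ESC and for dNSC, 4 for primitive), and adjusted p-values are limma's with Benjamini-Hochberg adjustment over all genes.

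**Figure D1:**
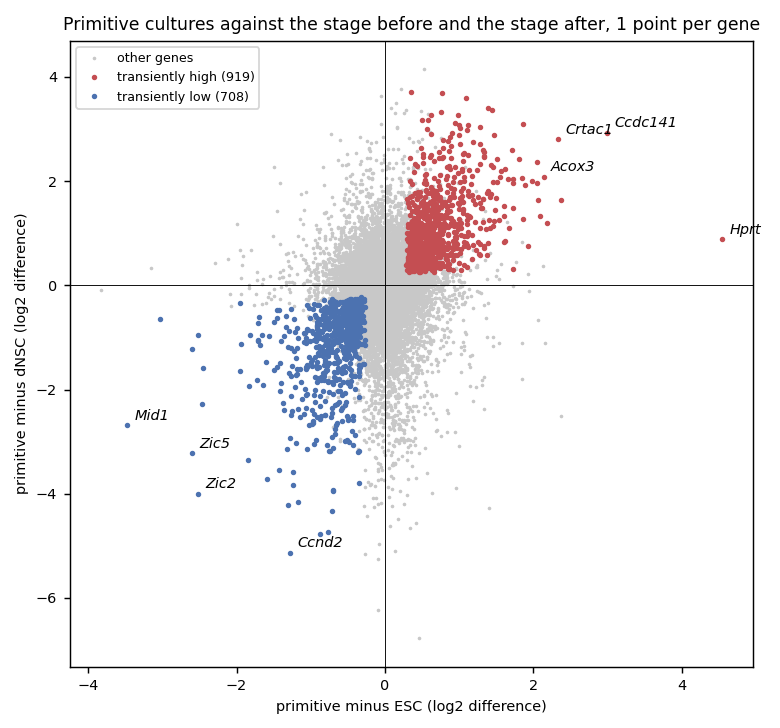
Each point is 1 of 19938 genes, with the log2 difference of primitive cultures from ESC on the x axis and from dNSC on the y axis. Red points are the 919 transiently high genes and blue points the 708 transiently low ones; Hprt stands apart at the right and Mid1, Zic2 and Zic5 at the lower left.

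The stages were checked against their markers. The mean of 6 ES cell markers (Pou5f1, Nanog, Zfp42, Klf4, Esrrb, Dppa5a) was 12.44 to 12.59 on the primitive arrays, 12.30 and 12.37 on the ESC arrays and 9.84 at most on the dNSC arrays. The mean of 6 neural stem cell markers (Sox1, Pax6, Nes, Fabp7, Msi1, Cdh2) was 8.02 to 8.14 on the primitive arrays, below the ESC arrays at 8.19 and 8.23, and at least 11.36 on the dNSC arrays. Pax6 was transiently low and none of the 6 was transiently high; without Pax6 the mean was 8.20 to 8.41 on the primitive arrays, 8.16 and 8.23 on the ESC arrays and 11.77 and 11.78 on the dNSC arrays. The name primitive neural stem cell is used here only as the label gives it. These arrays lay near ESC in both marker means and far below dNSC in the neural one. The name definitive neural stem cell is the label's too. In dNSC the ES cell marker mean, 9.84 and 9.79, lay above CNS_NSC at 7.27 and 7.24. The mean of 6 endoderm markers (Gata4, Gata6, Sox17, Sox7, Foxa2, Afp) was 8.47 and 8.51 in dNSC. It was 7.76 to 7.99 in primitive cultures and 7.40 and 7.58 in ESC. Fibroblast markers averaged 7.52 and 7.65 on the ESC arrays, 8.15 and 8.43 in pNSC_L, 7.65 and 7.69 in pNSC_LF and 8.55 and 8.45 in dNSC, and none of the 6 was called in either direction. Much of that range came from the matrix protein decorin, Dcn, at 6.06 and 6.48 in ESC, 8.79 and 10.41 in pNSC_L, 7.28 and 7.24 in pNSC_LF and 9.54 on both dNSC arrays, whereas Thy1 was lower in primitive cultures (8.65 to 8.73) than in ESC (9.57 and 9.38). The part of fibroblasts in the results was not tested. Of 25 feeder fibroblast genes, Loxl1 alone was called (low), and that call was lost in 9 of 17 alternatives, among them the replicate block, the trended prior and 7 of the 8 fits that left out 1 array. ESC arrays stood apart at Hprt, a purine salvage gene: it read 6.99 and 6.76 in ESC, 11.07 to 11.60 in primitive cultures and 10.50 and 10.53 in dNSC. Whether the ESC arrays came from another line or another subline of R1 was not tested. Such a difference could not be told apart from the stage in any comparison with ESC. Every transient call rests in part on that comparison. These are bulk cultures, in which fewer cells of a type and less RNA per cell cannot be told apart.

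The genes with the largest transient rise were led by Ccdc141, which encodes a coiled-coil protein linked to neuronal migration. It read 8.09 and 8.06 in ESC, 10.96 and 11.01 in pNSC_L, 11.01 and 11.27 in pNSC_LF and 8.11 and 8.15 in dNSC. The stages on either side were alike, and the primitive cultures stood 7.94-fold above ESC (2.99 ± 0.10, adjusted p = 5.7e-07 by limma) and 7.64-fold above dNSC (2.93 ± 0.10, adjusted p = 1.7e-08 by limma). The brain-derived CNS_NSC arrays were higher still, at 11.78 and 11.57. Crtac1, a secreted matrix protein, read 8.06 and 8.02 in ESC, 10.40, 10.65, 10.15 and 10.29 in primitive cultures and 7.39 and 7.75 in dNSC, without overlap. Mme, the membrane peptidase neprilysin, was highest in primitive cultures: 10.15 and 10.12 in ESC, 11.79 to 12.22 in primitive cultures and 8.88 and 8.89 in dNSC. Chga, which encodes the secretory granule protein chromogranin A, read 8.84 and 8.86 in ESC, 10.45 to 10.69 in primitive cultures and 9.12 and 9.07 in dNSC.

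Genes of fatty acid oxidation recurred among the high calls, and a list of 29 measured members was drawn up after those values were seen, so it carries no test. Of these, 9 were transiently high and none low, against 4.61% of all genes. Acox3, a peroxisomal acyl-CoA oxidase, read 8.33 and 8.21 in ESC, 9.80 and 9.95 in pNSC_L, 10.98 and 10.93 in pNSC_LF and 8.44 and 8.21 in dNSC. It rose further on the second pass, by 1.08 ± 0.13 (adjusted p = 0.0039 by limma), and averaged 4.41-fold above ESC and 4.25-fold above dNSC. Slc25a20, the carrier that brings acylcarnitines into mitochondria, followed the same course: 8.96 and 8.76 in ESC, 10.38 and 10.24 in pNSC_L, 11.46 and 11.29 in pNSC_LF, and 8.77 and 8.90 in dNSC. The acyl-CoA dehydrogenases for each chain length were also called, with smaller differences. They were Acadvl (0.51 ± 0.08 from ESC, 0.54 ± 0.08 from dNSC), Acadl (0.54 ± 0.14, 0.80 ± 0.14), Acadm (0.51 ± 0.08, 1.08 ± 0.08) and Acads (0.59 ± 0.10, 0.99 ± 0.10). The thiolase Acaa2, the peroxisomal bifunctional enzyme Ehhadh and the reductase Decr2 completed the 9. Cpt1a, which commits fatty acids to the carnitine route, was not called: it differed from ESC by 0.25 ± 0.11 (adjusted p = 0.15 by limma) and from dNSC by 2.49 ± 0.11. Over the 29 genes the median difference from ESC was 0.15 to 0.20 on each primitive array and -0.17 and -0.15 on the dNSC arrays. Of 30 respiratory chain and ATP synthase genes, Sdhb was transiently high, a call lost without pNSC_LF replicate 2 or ESC replicate 2, and 0 were low by limma, also at unadjusted p-values under 0.05.

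Enzymes of folate, choline and methionine metabolism were called high at 4 of 17 measured genes and low at none (4.61% of all genes were high). Dmgdh, the mitochondrial dimethylglycine dehydrogenase of choline breakdown, was raised mainly on the second pass. It read 6.81 and 6.74 in ESC, 7.40 and 7.16 in pNSC_L, 10.36 and 10.37 in pNSC_LF and 6.76 and 6.96 in dNSC. Bhmt, which makes methionine from betaine in the same pathway, read 7.00 and 7.04, then 7.43 and 7.29, then 8.73 and 8.70, then 7.00 and 7.13 in the same order of groups. Cbs, which draws homocysteine into cysteine synthesis, and the methionine synthase Mtr were the other called members, at 0.92 ± 0.11 and 0.42 ± 0.09 above ESC. Only 2 of the 4 were called when the dimmer 50% of genes was left out, since Dmgdh and Bhmt were themselves among the genes left out. Aldh1l1, a cytosolic folate enzyme often used as an astrocyte marker, is not in that list but was among the largest rises, at 7.63 and 7.68 in ESC, 9.65 to 9.74 in primitive cultures and 7.42 and 7.25 in dNSC. The astrocyte markers Gfap, Aqp4 and S100b were not called.

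Lipid synthesis and export were represented by fewer genes, set against the 4.61% of all genes that were high. In cholesterol synthesis, 3 of 20 genes were called high (Hmgcs1, Pmvk, Nsdhl), but 1 without either pNSC_LF array or without ESC replicate 1 and 0 without ESC replicate 2. In fatty acid synthesis Elovl6, an elongase, rose by 0.57 ± 0.09 from ESC and 0.91 ± 0.09 from dNSC, and Acss2 was also called, but in only 1 of the 8 fits that left out 1 array. Of 12 targets of the sterol-sensing receptor LXR, a list made after values were seen, Abca1, Mylip, Apoe and the noncoding RNA Mexis were called high. Abca1, the cholesterol exporter, read 8.74 and 8.65 in ESC, 10.17 to 10.53 in primitive cultures and 8.48 and 8.42 in dNSC. On the CNS_NSC arrays, which entered the estimate of spread, Abca1 read 10.54 and 8.59. Its call and that of Apoe were lost without either ESC array, which left 2 of 12, and the Apoe call was lost in each of the 8 fits that left out 1 array.

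Of 24 lysosome and autophagy genes, 6 were transiently high and none low (4.61% of all genes were high), and without ESC replicate 2 the number was 2. Hexa, a lysosomal hexosaminidase, read 10.84 and 10.60 in ESC, 11.47 and 11.61 in pNSC_L, 11.88 and 11.87 in pNSC_LF and 10.51 and 10.54 in dNSC. The cathepsin genes Ctsb, Ctsd and Ctsa, the autophagy receptor Sqstm1 and the kinase Ulk1 made up the rest. Over the 24 genes the median difference from ESC was 0.24 and 0.28 in pNSC_L and 0.56 and 0.50 in pNSC_LF, and it was -0.02 and 0.00 in dNSC. TCACGTG, the core bound by the lysosomal regulator Tfeb, was searched on both strands in 300 bases around each RefSeq start site. It was present for Ctsd and Ctsa among the 5 called genes with a promoter entry, for 4 of the 15 others of the list, for 8.37% of all transiently high genes with an entry, for 4.29% of all genes with one, and in 3.77% of all promoters.

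**Figure D2:**
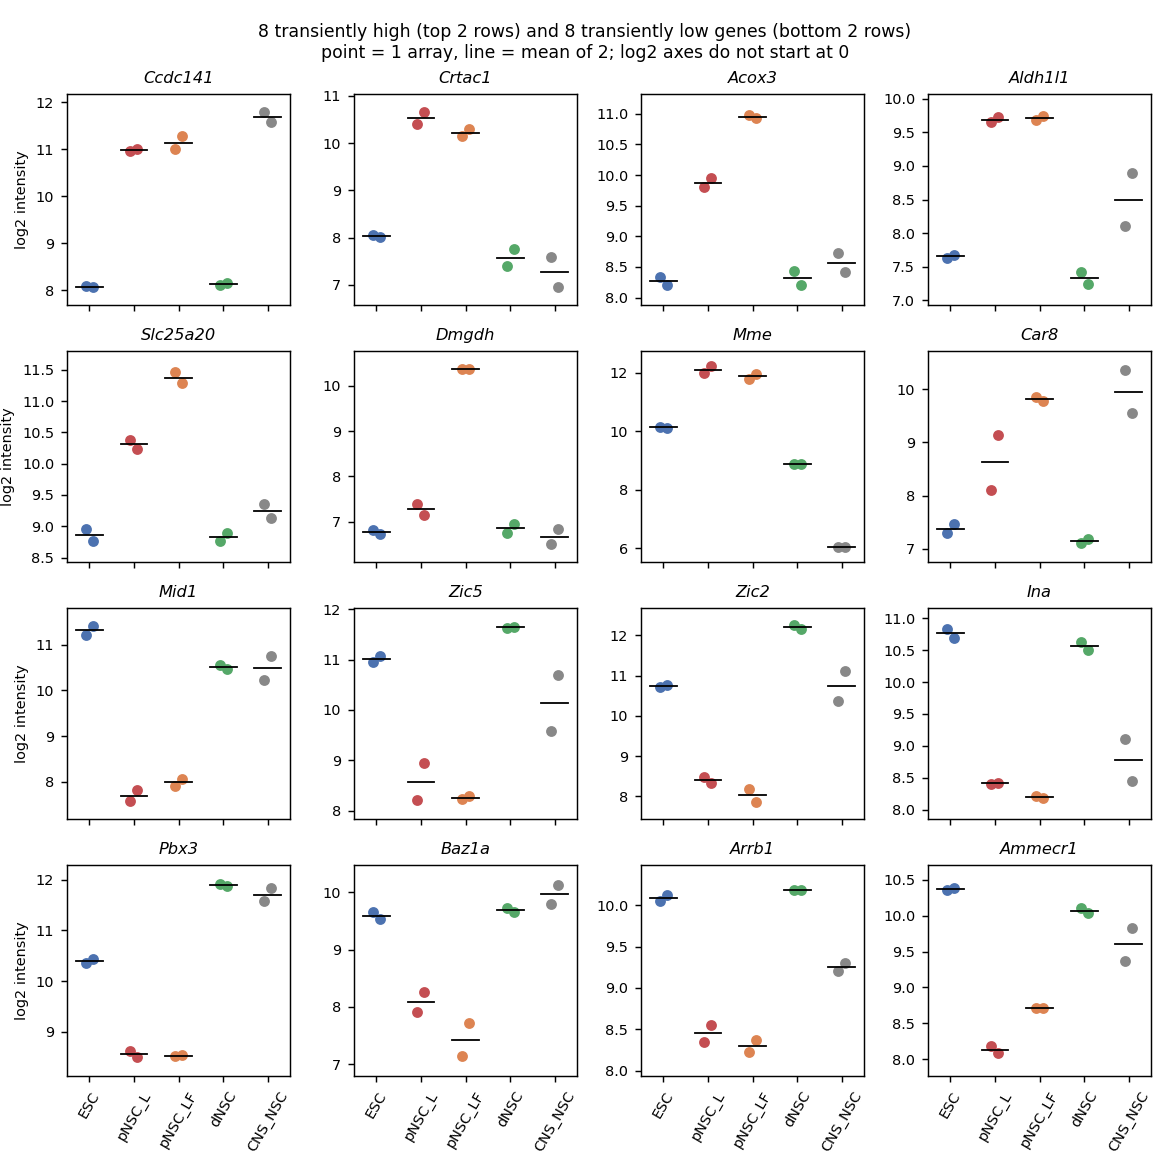
Log2 intensity by array for 8 of the 15 largest transient rises and 8 of the 15 largest transient falls, each point 1 array and each line the mean of 2. The primitive arrays stand outside the ESC and dNSC arrays in every panel; Dmgdh is much higher in pNSC_LF than in pNSC_L, and Ccdc141 is as high in CNS_NSC as in primitive cultures or higher.

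The largest transient fall belonged to Mid1, a microtubule-bound ubiquitin ligase. It read 11.22 and 11.41 in ESC, 7.57 and 7.81 in pNSC_L, 7.91 and 8.07 in pNSC_LF and 10.56 and 10.47 in dNSC. That is 11.1-fold below ESC (-3.47 ± 0.15, adjusted p = 1.8e-06 by limma) and 6.42-fold below dNSC (-2.68 ± 0.15, adjusted p = 2.9e-07 by limma). Zic2 and Zic5, zinc finger factors of the late epiblast and early neural plate, were low together. Zic2 read 10.72 and 10.76 in ESC, 8.47, 8.34, 8.19 and 7.85 in primitive cultures and 12.26 and 12.17 in dNSC. Zic5 read 10.96 and 11.08 in ESC, 8.20, 8.95, 8.22 and 8.28 in primitive cultures and 11.63 and 11.65 in dNSC. The groups did not overlap for either gene. For Zic2 dNSC lay above ESC, while for Zic5 that difference did not pass the test (adjusted p = 0.15 by limma). Pbx3, a Hox cofactor, the chromatin remodelling subunit Baz1a, the arrestin Arrb1 and the forkhead factor Foxp1 were among the other 15 largest falls.

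Zic2 and Zic5 belonged to a list of 19 primed epiblast genes, of which 7 were transiently low (36.8%, against 3.55% of all genes) and 3 transiently high. Against ESC alone 8 of the 19 were lower and 5 higher, where 8.93% of all genes were lower. Against dNSC 15 were lower and 3 higher, where 43.0% of all genes differed in either direction. Lower were also the de novo DNA methyltransferases Dnmt3a and Dnmt3b, the Wnt effector Lef1, Sox4 and Fgf15. Dnmt3b read 10.04 and 10.03 in ESC, 8.94 to 9.24 in primitive cultures and 10.14 and 9.94 in dNSC. The difference was -0.92 ± 0.11 from either stage. The 3 high members were Nodal, its antagonist Lefty2 and the factor Foxd3, and all 3 calls were lost without ESC replicate 2. Fgf5, the best known primed marker, was not transient: it read 7.03 and 7.40 in ESC, 7.47 to 7.95 in primitive cultures and 10.18 and 10.27 in dNSC.

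Of 25 naive pluripotency genes, 6 were transiently high (24.0%, against 4.61% of all genes) and Gbx2 was low. Against ESC alone 6 of the 25 were higher and 5 lower, where 17.9% of all genes differed in either direction. Against dNSC 23 were higher and 1 lower, where 43.0% of all genes differed, so most members met the dNSC side of the rule. Tbx3, a factor of the naive network, read 11.13 and 11.09 in ESC, 12.08 to 12.30 in primitive cultures and 8.55 and 8.63 in dNSC, a rise of 1.09 ± 0.08 over ESC. Klf4 rose further with the second pass: 10.53 and 10.56 in ESC, 10.83 and 10.77 in pNSC_L, 11.58 and 11.45 in pNSC_LF and 7.83 and 7.96 in dNSC. Tfcp2l1, Fgf4, Tcl1 and Sall4 were the others. Pou5f1, Nanog and Zfp42 were not called against ESC, with adjusted p-values of 0.18, 0.19 and 0.34 by limma, and all were higher than in dNSC. The median difference of the 25 genes from ESC lay between 0.07 and 0.21 on the primitive arrays, and was -2.29 and -2.39 in dNSC.

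Targets of signalling pathways are set against the 3.55% of all genes that were low and the 4.61% that were high. Of 20 FGF-ERK targets 3 were transiently low and none high: the ETS factor Etv4, Myc and the cyclin Ccnd1. Etv4 read 9.99 and 9.76 in ESC, 7.91 and 7.55 in pNSC_L, 8.74 and 8.52 in pNSC_LF and 8.79 and 8.78 in dNSC, so the second pass, with FGF added, lay just below dNSC. Its call was lost after quantile normalization. Among 16 BMP targets Id4 and Smad7 were high and Id1 and Id2 low. Id4 read 7.83 and 7.66 in ESC, 9.43 to 10.30 in primitive cultures and 8.63 and 8.81 in dNSC, whereas the Id1 call was lost in each of the 8 fits that left out 1 array. Among 21 Lif-Stat3 targets Klf4 and Tfcp2l1 were high and Myc, Pim1 and Gbx2 low, and 1 of the low calls remained without dNSC replicate 2. Of 19 Notch pathway genes Jag1 and Mfng were low and none high, both calls being lost without either ESC array. Of 14 Wnt targets Lef1, Ccnd1 and Nkd2 were low and none high. Ccnd2, named after its values were seen, fell from at least 9.5 in ESC to at most 8.64 and stood at 13.43 and 13.46 in dNSC.

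Some neuronal genes were lower at the primitive stage than on either side. Of 26 neuronal differentiation genes, 8 were transiently low (30.8%, against 3.55% of all genes) and Chga was high (4.61% of all genes were). Against ESC alone 8 of the 26 were lower and 3 higher, where 8.93% of all genes were lower. Against dNSC 19 were lower and 3 higher, where 43.0% of all genes differed in either direction. Ina, the neurofilament protein internexin, read 10.83 and 10.70 in ESC, 8.40 and 8.42 in pNSC_L, 8.21 and 8.18 in pNSC_LF and 10.63 and 10.51 in dNSC. The primitive cultures were 5.52-fold below ESC (-2.46 ± 0.15) and 4.82-fold below dNSC (-2.27 ± 0.15). Crmp1, a cytosolic mediator of axon guidance, read 9.32 and 9.26 in ESC, 7.39 to 7.97 in primitive cultures and 9.57 and 9.55 in dNSC. Neurod1, a proneural factor, read 8.93 and 9.42, then 6.46 to 7.03, then 7.51 and 7.70, so dNSC lay between ESC and the primitive cultures. Nefl, Gap43, Map2, Elavl3 and Ncam1 were the other low members. Tubb3 and Dcx were not called, and over the whole list the median difference from ESC was only 0.04 to -0.18 on the primitive arrays. The neuron marker Stmn2 was not called either. Its primitive arrays (12.49 to 12.81) lay above ESC (12.38 and 12.34) and dNSC (11.41 and 11.42). Among 26 neural stem and progenitor genes Pax6, Fgfr2 and Sox11 were low and Egfr was high. The Fgfr2 call was lost without either ESC array, and the Egfr call without pNSC_LF replicate 2 or either dNSC array. Pax6, a master factor of neural and eye development, read 8.32 and 8.23 in ESC, 6.79 to 7.12 in primitive cultures and 9.26 and 9.36 in dNSC.

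Of 27 measured glycolysis and hypoxia response genes, 7 were transiently low (25.9%, against 3.55% of all genes). Hk2 was high, a call lost in 7 of the 8 fits that left out 1 array. The oxygen-responsive factor Hif1 binds a core of ACGTG, and the 250 bases before the RefSeq start sites (GRCm38.p6) of 3 of the 7 are printed to show where that core stands, in capitals on either strand; CACGTG holds it on both.
Ldha, chr7:46845554-46845803, plus strand: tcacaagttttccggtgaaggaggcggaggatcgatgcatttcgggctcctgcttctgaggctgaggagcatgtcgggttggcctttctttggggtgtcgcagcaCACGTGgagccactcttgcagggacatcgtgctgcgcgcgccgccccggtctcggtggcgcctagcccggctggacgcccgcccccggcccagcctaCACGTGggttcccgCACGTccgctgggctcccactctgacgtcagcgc
Bnip3, chr7:138909507-138909756, minus strand: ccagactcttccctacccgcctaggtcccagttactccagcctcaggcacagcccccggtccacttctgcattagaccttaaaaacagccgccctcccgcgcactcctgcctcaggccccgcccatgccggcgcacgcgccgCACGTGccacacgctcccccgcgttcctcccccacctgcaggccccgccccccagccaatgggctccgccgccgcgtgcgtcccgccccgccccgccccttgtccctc
P4ha1, chr10:59323046-59323295, plus strand: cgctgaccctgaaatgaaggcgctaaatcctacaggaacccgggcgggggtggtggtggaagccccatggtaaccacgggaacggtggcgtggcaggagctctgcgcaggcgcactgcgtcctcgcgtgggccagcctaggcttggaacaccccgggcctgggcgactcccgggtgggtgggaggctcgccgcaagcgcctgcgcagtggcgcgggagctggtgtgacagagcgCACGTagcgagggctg
The search used 300 bases, 250 before to 50 after each start. ACGTG on either strand was present for 6 of the 7 low genes, all but Tpi1, but also for 13 of the 18 other list members with an entry. It was present for 21.8% of all genes with an entry, for 32.0% of all transiently low genes with one, and in 19.6% of all promoters. A match in these letters is not a measured binding site.

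Ldha, which reduces pyruvate to lactate, read 13.41 and 13.25 in ESC, 12.23, 11.99, 12.22 and 12.12 in primitive cultures and 13.31 and 13.36 in dNSC. It was 2.28-fold below ESC (-1.19 ± 0.10, adjusted p = 6.1e-05 by limma) and 2.29-fold below dNSC (-1.20 ± 0.10, adjusted p = 4.9e-06 by limma). Tpi1, a glycolytic isomerase, read 12.75 and 12.79, then 10.93 to 11.39, then 12.21 and 12.16. The glucose transporter gene Slc2a1 read 13.51 and 13.38 in ESC, 12.40 to 13.00 in primitive cultures and 13.72 and 13.64 in dNSC. Among the low genes of the oxygen response, Egln1 encodes the prolyl hydroxylase that marks Hif1 for destruction, P4ha1 a collagen hydroxylase subunit and Bnip3 a mitophagy receptor. Bnip3 was low mainly against ESC: it read 12.57 and 12.47 in ESC, 9.12 to 9.70 in primitive cultures and 10.25 and 10.02 in dNSC. Ddit4, a stress-induced inhibitor of mTORC1, separated the passes, with 8.54 and 8.46 in pNSC_L against 9.84 and 9.55 in pNSC_LF, 10.46 and 10.10 in ESC and 10.64 and 10.76 in dNSC. The list as a whole was not lower than dNSC. Its median difference from ESC was -0.61 to -0.75 on the primitive arrays and -0.66 and -0.63 on the dNSC arrays, since genes such as Pfkl, Pkm and Pgam1 had stayed below ESC after the primitive stage. Against ESC alone 18 of the 27 were lower (8.93% of all genes were).

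**Figure D3:**
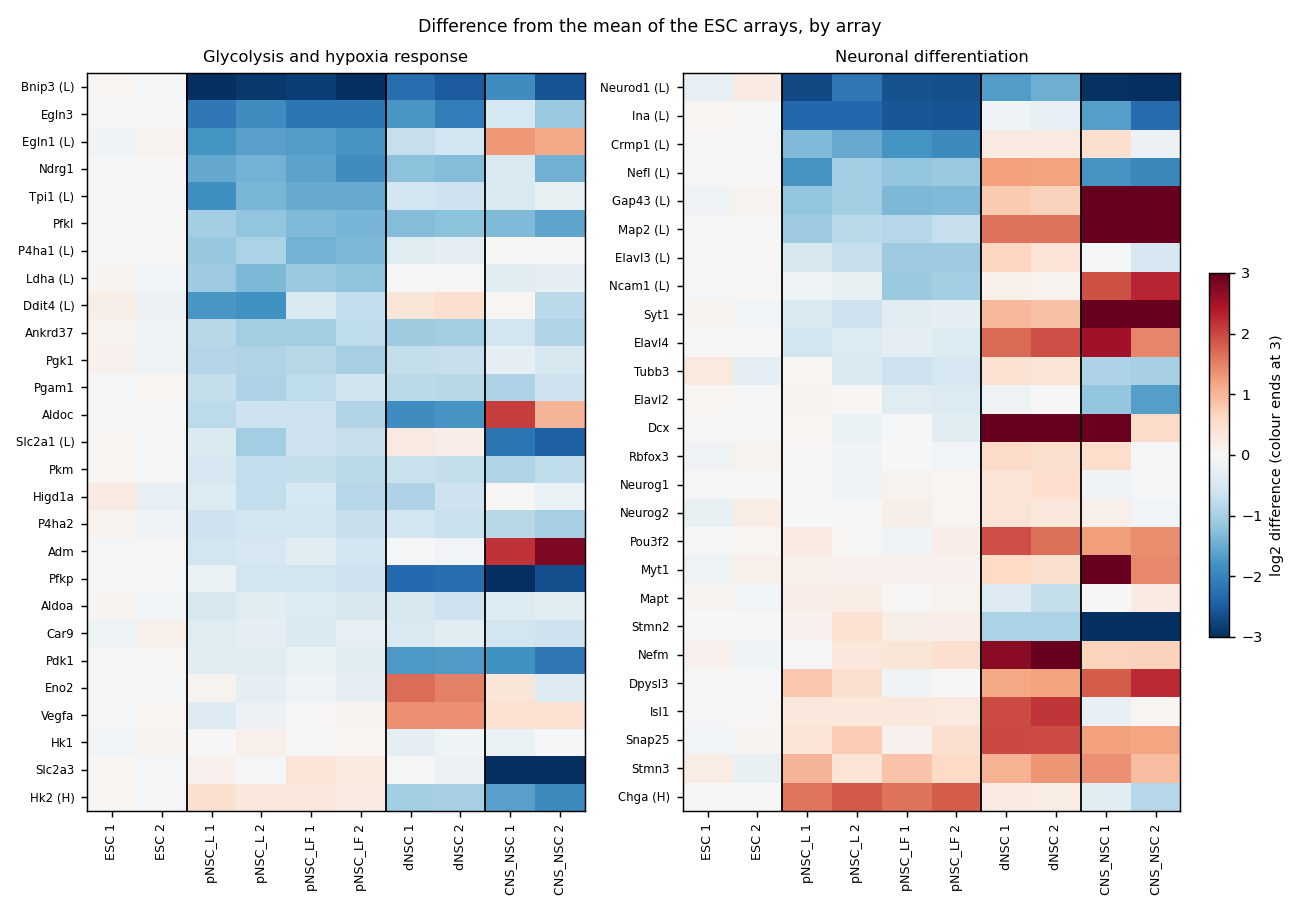
Log2 difference of each array from the mean of the ESC arrays for 27 glycolysis and hypoxia genes (left) and 26 neuronal differentiation genes (right), with rows ordered by the primitive mean and (L) or (H) marking transiently low or high genes. Ldha, Slc2a1 and Ddit4 return to the ESC level or above it in dNSC, while Pfkl and Egln3 do not; most rows at the bottom right differ little between ESC and primitive cultures.

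Of 26 S phase genes 4 were low (Ccne2, Rfc4, Rrm1, Rrm2; 15.4%, against 3.55% of all genes) and none high, and 2 remained without dNSC replicate 2. Cyclin E2, Ccne2, read 9.55 and 9.45 in ESC, 8.10 to 8.44 in primitive cultures and 9.65 and 9.75 in dNSC. Of 23 G2 and mitosis genes and 20 ribosome biogenesis genes 0 were called by limma in either direction, while at unadjusted p-values under 0.05 for both tests 2 and 1 were low and 0 high. Among 26 targets of ATF4, a transcription factor of the amino acid response, the serine synthesis genes Phgdh and Psat1 and the secreted factor Stc2 were low. Cth was high, a call lost in 7 of the 8 fits that left out 1 array. Phgdh read 9.97 on both ESC arrays, 8.97 to 9.46 in primitive cultures and 10.49 and 10.37 in dNSC. Of 22 cytoskeletal and SRF targets Cnn1, Tpm2, Myl9 and Srf itself were low (18.2%), and 0 remained without either ESC array.

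Among 19 neural crest and surface ectoderm genes Tfap2a, Foxd3 and Grhl3 were high and none low, where 4.61% of all genes were high and 3.55% low. Tfap2a, an ectodermal factor, read 7.17 and 7.35 in ESC, 7.79 and 7.63 in pNSC_L, 10.02 and 9.73 in pNSC_LF and 7.62 and 7.45 in dNSC, so the call rested mostly on the second pass. Eomes, a factor of mesendoderm and trophoblast, read 8.15 and 8.19 in ESC, 9.57 to 9.94 in primitive cultures and 8.97 and 8.93 in dNSC. Of 24 endoderm genes Lama1 and Sox7 were high and Lamb1 low, the high calls being lost without either ESC array or either dNSC array. Desmosomal plakoglobin, Jup, rose by 0.88 ± 0.09 over ESC and 1.69 ± 0.09 over dNSC, while the tight junction gene Ocln and the epithelial splicing factor Esrp1 were low. In the lists not described elsewhere, 2 of 13 trophoblast genes (Eomes, Tead4), 1 of 17 p53 targets (Phlda3) and 1 of 17 mesoderm genes (Eomes) were high with none low. In the interferon list 1 of 19 genes (Ifit2) was low. The p53 and mesoderm shares (5.88% each) and the interferon share (5.26%) lay near those of all genes. The Tead4 and Phlda3 calls were lost without either ESC array, and the Ifit2 call after quantile or cyclic loess normalization and in 6 of the 8 fits that left out 1 array.

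**Figure D4:**
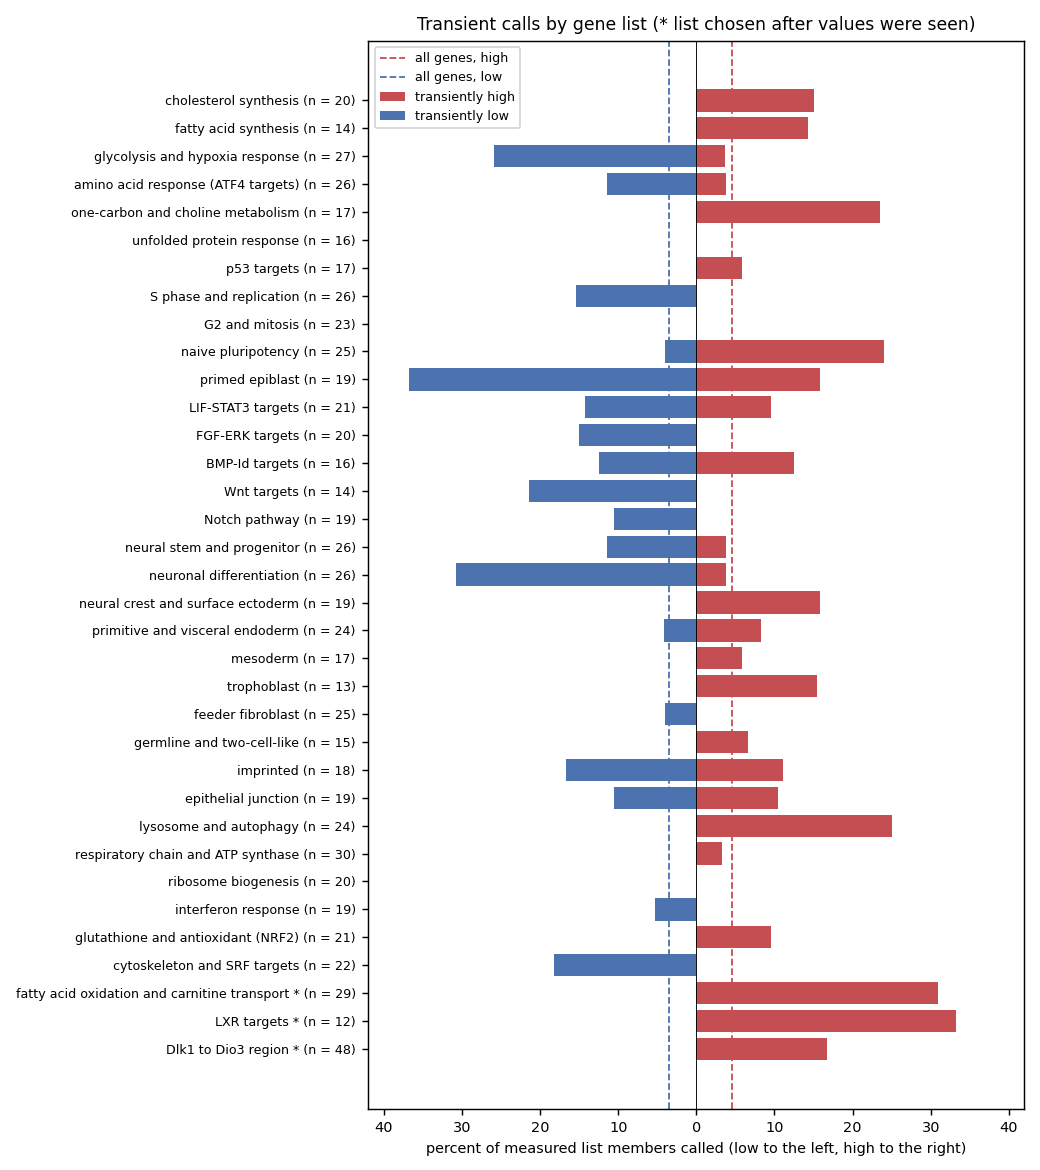
Percent of measured members of each gene list that were transiently high (red, to the right) or low (blue, to the left), with dashed lines at the shares of all genes, 4.61% and 3.55%. Primed epiblast (36.8%), neuronal differentiation (30.8%) and glycolysis and hypoxia (25.9%) lead the low side; lists with an asterisk were chosen after values were seen.

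Imprinted genes were called in both directions. Of 18, Meg3 and Rian were high (11.1%, against 4.61% of all genes). Mest, Cdkn1c and Nnat were low (16.7%, against 3.55% of all genes). Of the low calls only that of Mest was kept without either ESC array or without pNSC_LF replicate 1. Meg3 and Rian are maternally expressed noncoding RNAs of the Dlk1 to Dio3 domain on chromosome 12, whose transcripts carry many miRNA hairpins. The arrays hold probe sets for 48 of the 103 RefSeq genes between Dlk1 and Dio3, a set drawn up after these values were seen. Of the 48, 8 were transiently high (16.7%, against 4.61% of all genes) and none low: Meg3, Rian, the small RNA gene DQ267101 and the hairpin genes Mir136, Mir381, Mir487b, Mir134 and Mir369. The RefSeq table used here (GRCm38.p6) gives 9 mature RNAs of those 5 hairpins, for miR-487b only the 5p form; they are printed with the seed (bases 2 to 8), which pairs with target RNAs, in capitals.
mmu-miR-136-5p, chr12:109595331-109595352, plus strand: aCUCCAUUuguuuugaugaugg
mmu-miR-136-3p, chr12:109595366-109595387, plus strand: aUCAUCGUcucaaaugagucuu
mmu-miR-381-5p, chr12:109726829-109726851, plus strand: aGCGAGGUugcccuuuguauauu
mmu-miR-381-3p, chr12:109726870-109726891, plus strand: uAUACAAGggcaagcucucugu
mmu-miR-487b-5p, chr12:109727347-109727367, plus strand: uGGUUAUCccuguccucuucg
mmu-miR-134-5p, chr12:109734145-109734166, plus strand: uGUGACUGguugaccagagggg
mmu-miR-134-3p, chr12:109734184-109734203, plus strand: cUGUGGGCcaccuagucacc
mmu-miR-369-5p, chr12:109743431-109743452, plus strand: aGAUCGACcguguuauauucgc
mmu-miR-369-3p, chr12:109743466-109743486, plus strand: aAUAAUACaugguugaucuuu
No seed was shared among these 9 sequences, and the arrays, which take up long RNA that contains a hairpin, did not measure the mature forms.

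Rian read 9.19 and 8.94 in ESC, 10.63 and 10.56 in pNSC_L, 9.88 and 9.92 in pNSC_LF and 8.58 and 8.65 in dNSC. Meg3 read 10.92 and 11.13, 12.21 and 12.26, 11.96 and 11.93, and 11.71 and 11.68 in the same order, so dNSC too lay above ESC (0.68 ± 0.10, adjusted p = 4.4e-04 by limma). On the CNS_NSC arrays Meg3 stood at 7.86 and 7.80. Of the called hairpin genes, Mir369 had the largest differences and read 5.99 and 5.66 in ESC, 6.63, 7.65, 7.09 and 7.04 in primitive cultures and 6.39 and 6.25 in dNSC. It is dim, as are Mir136 and Mir381: the lower quartile of probe sets lay at 6.39 to 6.49, and the size of such differences is uncertain. Over the 48 genes the median difference from ESC was 0.55 and 0.76 in pNSC_L, 0.19 and 0.19 in pNSC_LF and 0.18 and 0.11 in dNSC, so the region as a whole stood apart on the primary pass and hardly on the second. These genes share transcripts and are not independent. The filter on the dimmer 50% of genes took dim members such as Mir369 out of the fit. The number called was 4 with the dimmer 30% or 50% of genes left out, 2 without ESC replicate 2, 5 without dNSC replicate 1, 13 without pNSC_L replicate 1 and 14 with array weights. The protein-coding neighbours Dlk1, Rtl1 and Dio3 were not called; Dlk1 was 2.19 ± 0.08 below dNSC and did not pass against ESC (adjusted p = 0.18 by limma).

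**Figure D5:**
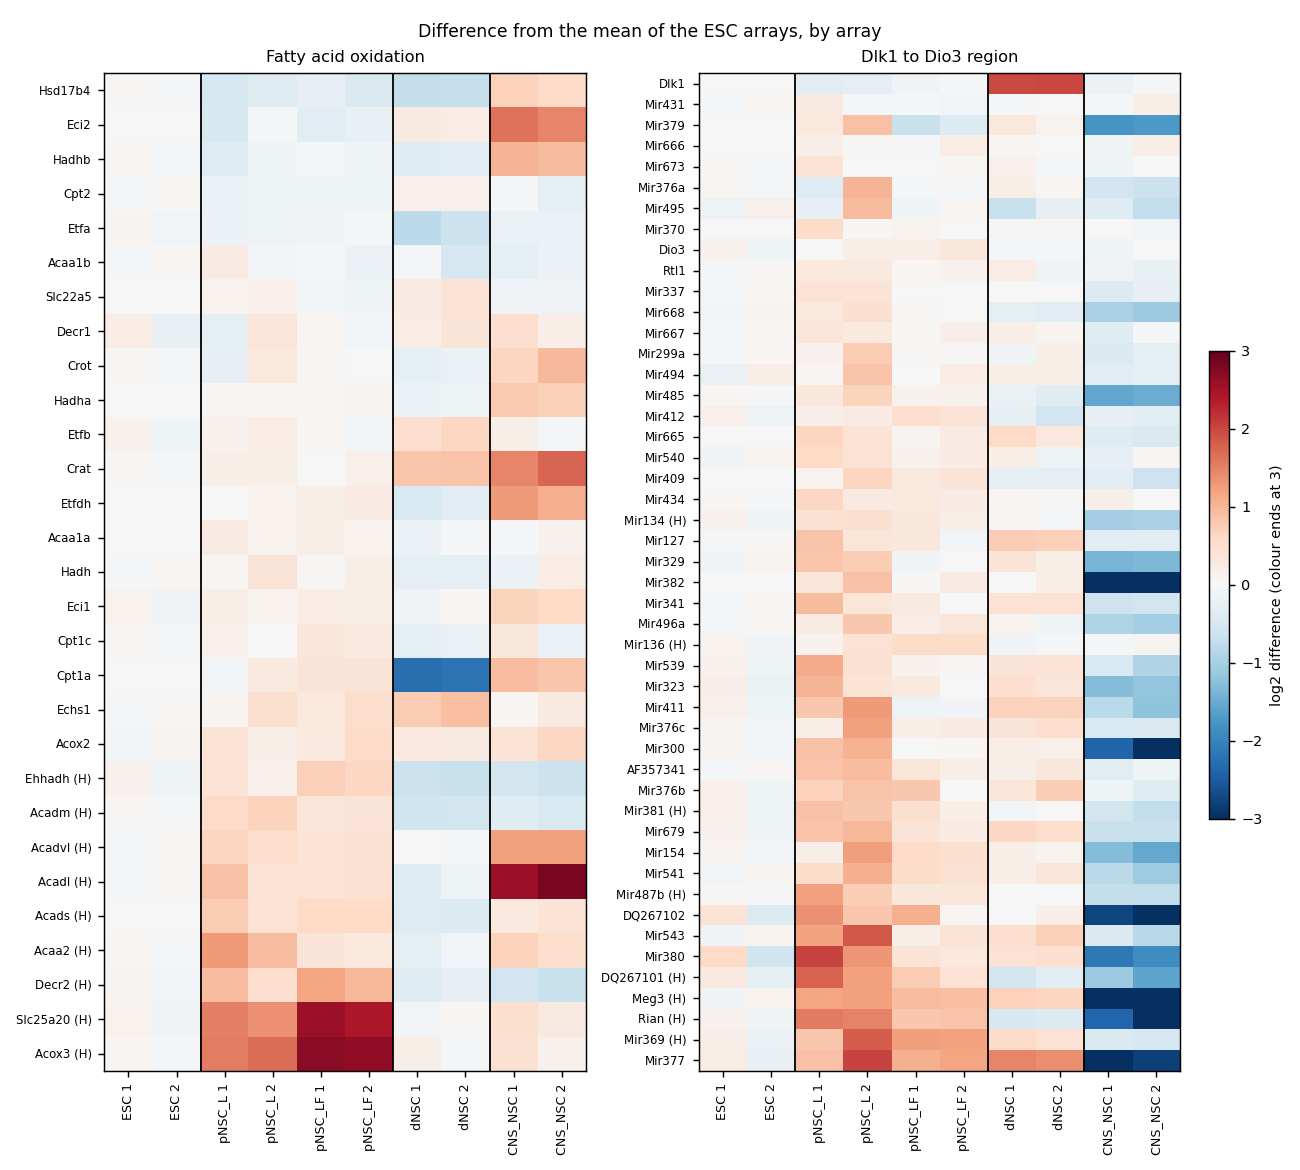
Log2 difference of each array from the mean of the ESC arrays for 29 fatty acid oxidation genes (left) and 48 genes between Dlk1 and Dio3 (right), ordered by the primitive mean, with (H) for transiently high genes. Acox3 and Slc25a20 are higher on the second pass, whereas many genes of the Dlk1 to Dio3 region are higher on the primary pass; both lists were chosen after values were seen.

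The remaining genes of the 15 largest rises covered varied functions. They were the carbonic anhydrase relative Car8, the peptide-modifying enzyme Qpct, the aspartoacylase Aspa, the zinc transporter Slc30a2, the calcium-binding protein S100a1, the homeobox gene Hoxc12 and the kallikrein Klk1b22. Klk1b22 belongs to a family of near-identical copies and H2ac1, among the falls, to the histone genes, so signal from relatives cannot be told apart there. Slc30a2 read 8.74 and 8.64 in ESC, 9.85 and 9.80 in pNSC_L, 11.09 and 10.88 in pNSC_LF and 7.91 and 7.69 in dNSC. Stc1, Neto2, Steap2, Ammecr1 and Fam171b were the falls not described above, with differences from ESC between -1.95 (Ammecr1) and -1.44 (Fam171b). Of the 30 largest rises and falls, 29 lost their call under none of the 17 alternatives, and Abca1 was the exception. Dim genes among them, such as Dmgdh, Aspa, Klk1b22 and Stc1, were not fitted with the dimmer 50% of genes left out. Their absence there was not counted as a loss.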

How the data were processed

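Per the labels' protocols, total RNA of each culture was prepared with a whole-transcript kit and hybridised to Affymetrix arrays. The authors deposited log2 intensities, 1 for each probe set on each array. RMA and Partek are named, with no version, in the submitters' processing notes; RMA compresses differences of dim probe sets. That the scale is log2 follows from the range of the values. No build is named in the sources used here, and coordinates are RefSeq's (GRCm38.p6). Of 35556 probe sets, 21789 had 1 gene symbol, 1621 several and 12146 none, and 21698 matched the RefSeq table. The probe set with the highest mean was kept per gene, giving 19938 genes. Array medians lay between 7.66 and 7.76, and replicates correlated at 0.9887 or more across genes in the 4 groups compared. The CNS_NSC replicates correlated at 0.9885 and lay at least 2-fold apart at 277 genes, against 167 in pNSC_L and fewer in the other groups. With 2 arrays a group, their number limits the precision. The series' design text calls them biological replicates and does not say how they were separated.

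limma 3.58.1 (R 4.3.3) fitted a mean for each of the 5 groups to the 10 arrays (5 residual and 4.9 prior degrees of freedom). Primitive is the mean of the pNSC_L and pNSC_LF means. The threshold was an adjusted p of 0.05 (Benjamini-Hochberg, across the 19938 genes). No value was filtered. Tables and plots used Python 3.11.15, pandas 2.3.3 and matplotlib 3.10.9.

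The members and the 32 gene lists (708 entries, 658 measured) were chosen with earlier results of these data known, and 3 more lists after values were seen. The genes named were the 15 largest rises and 15 largest falls by the smaller of the differences, with a mean of at least 8.10 in some group and no predicted name. Added were up to 3 called genes per list and direction, the largest differences between passes, landmark genes, and the genes nearest the rule's edge. Other list members and any further gene named were chosen after their values were seen.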

Additional observations from a re-analysis of the deposited data

Results flagged for a closer look

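The passes differed, by limma's test of pNSC_LF against pNSC_L with Benjamini-Hochberg adjustment, at 6 transiently high genes picked as the 3 largest differences in each direction. Dmgdh was higher on the second pass by 3.09 ± 0.14 (adjusted p = 8.2e-06), Tfap2a by 2.16 ± 0.14 (adjusted p = 1.3e-04) and M1ap, a meiosis gene, by 1.45 ± 0.15 (adjusted p = 0.0017). On the second pass Lefty2 was lower, at -1.54 ± 0.25 (adjusted p = 0.016), as were Lyz2, the macrophage lysozyme, at -1.14 ± 0.22 (adjusted p = 0.035) and Copz2, a coatomer subunit, at -1.10 ± 0.14 (adjusted p = 0.0048). Lyz2 read 7.11 and 7.99 in pNSC_L, 6.34 and 6.49 in pNSC_LF and 5.84 or less in ESC and dNSC, while 6 blood and immune markers, Lyz2 among them, averaged 7.81 to 7.99 on the primitive arrays, 7.42 and 7.49 in ESC and 6.70 and 6.68 in dNSC, and 1 of the 6 was transiently high. Of these, Cd68 read 10.11 and 10.46 in pNSC_L, 11.14 and 11.08 in pNSC_LF, 10.21 and 9.99 in ESC and 7.81 and 7.68 in dNSC, and Pecam1, which ES cells also express, 10.58 to 11.10, 10.30 and 10.42, and 7.97 and 8.02 in primitive cultures, ESC and dNSC. Ptprc (6.26 at most), Tyrobp (7.52 at most) and Hbb-bh1 (5.42 at most) were low on all 8 arrays. The part of other cells in the Lyz2 difference was not tested.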

How the results depend on the processing

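With a difference of at least 1 (log2) required on both sides, 109 high and 71 low genes were left. Leaving out 1 array at a time gave 426 to 1078 high and 314 to 901 low genes, the lowest without an ESC array (high 496 and 426, low 314 and 354), and 326 high and 232 low genes were called in all 8 such fits. Primitive against ESC gave 1543 to 4515 genes (3571 in the full fit; 2355 without pNSC_LF replicate 1, 1566 and 1543 without an ESC array). A gap of at least 0.5 between the array ranges left 183 of 1798 high and 165 of 1494 low genes. Among the transient genes, dNSC differed from ESC at 789, or 314 to 981 with 1 array left out, and pNSC_LF from pNSC_L at 77, which became 40 with array weights, 125 with only the 8 arrays and 7 to 179 with 1 array left out. The causes were not tested, beyond the fewer arrays. The replicate numbers are not shown to pair the samples (correlations of deviations between groups from -0.11 to 0.37); with the replicate number as a block, 981 high and 760 low genes were called. Of 112 named genes that were called, 66 lost the call under none of the 17 alternatives and none changed sign. A gene that a filter on dim genes left out was not fitted there and was not counted as lost. The 2 other normalizations, the filters on dim genes and the variance models kept the counts of high and low genes within 1.5 times.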

Other observations

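At 54 of the transiently high genes (5.88%) both CNS_NSC arrays lay above all primitive arrays, against 26.7% of all genes. At 64 of the low genes (9.04%) both lay below them, against 26.9% of all genes. The genes were chosen because their primitive arrays were high or low, which by itself lowers these shares. The contrast with all genes therefore says nothing about CNS_NSC. Ccdc141 and the sterol synthesis gene Hmgcs1, at 12.54 and 12.77 in CNS_NSC against 11.62 to 11.98 in primitive cultures, were among those 54 genes. Egfr was transiently high by small amounts, up to 8.29 in primitive cultures against 7.51 to 7.91 in ESC and dNSC, and stood at 12.25 and 12.32 in CNS_NSC; its call was lost in 3 of the 8 fits that left out 1 array.

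By chromosome, 46 of 739 genes on the X (6.22%) were transiently low, against 3.55% of all genes, and 27 (3.65%) were transiently high. The low shares of the autosomes ranged from 2.03% (chromosome 17) to 5.45% (chromosome 8). Mid1 and Ammecr1 are X-linked. The germline gene Dazl was transiently high, at 9.18 and 8.98 in ESC, 9.35 to 9.79 in primitive cultures and 7.08 on both dNSC arrays; the call was lost without ESC replicate 2. Of 21 antioxidant genes Gstm1 and Gpx1 were high (9.52%, against 4.61% of all genes). Of 16 unfolded protein response genes 0 were called by limma and 2 were high at unadjusted p-values under 0.05.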
